A study of Mus musculus with 10 samples.

Results

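The comparison concerns the lungs of mice with ovalbumin-induced asthma that did or did not receive an ethanol extract of the seeds of Descurainia sophia (DSE), a seed used in traditional herbal medicine. Its members are the 7 libraries of the Herb group (n = 4) and the OVA group (n = 3), out of 10 RNA-seq libraries of the series, and they were chosen by their group labels. All mice were female BALB/c mice of 8 weeks. OVA and Herb mice shared the sensitization to ovalbumin, an egg protein, with alum and 4 days of intranasal challenge, and Herb mice were given DSE by mouth at 200 mg/kg for 7 days whereas OVA mice were given vehicle. The 3 remaining libraries came from mice given saline only (Saline) and serve as background. Each library came from whole lung, so fewer cells of a type and less RNA per cell cannot be told apart. Nothing in the labels says how many litters, cages or extraction days the mice came from, so the p-values measure the spread between these lungs, and 1 dose at 1 time was examined.

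Repeated inhalation of an allergen by a sensitized mouse brings eosinophils and T helper 2 cells into the airways, and the cytokines of the latter turn airway epithelium toward mucus production. Alveoli are lined by flat type 1 cells that exchange gas and by type 2 cells that make surfactant, while club and ciliated cells line the airways. A whole-lung library mixes the RNA of all these cells with that of blood, vessels and connective tissue. The markers of lung were present in all 7 libraries, with rescaled levels of 319 to 1085 FPKM for Sftpc, a surfactant protein of type 2 cells, and of 4273 to 10184 FPKM for Scgb1a1, the secretory protein of club cells.

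The libraries of the groups differed in overall composition before any single gene was compared. Fragments on annotated messenger RNA transcripts made up 11.9%, 14.9% and 13.4% of all fragments in OVA and 24.3%, 25.8%, 19.3% and 21.9% in Herb. The mean in Saline was 33.2%. This share of messenger RNA leaves out the assembled transcript models described below, so fragments given to such models are not in it. The precursor of ribosomal RNA, Rn45s, averaged 11249 FPKM with an SD of 1979 over the OVA libraries (n = 3) and 5465 FPKM with an SD of 1707 over the Herb libraries (n = 4). Both measures separated the groups without overlap (two-sided exact permutation test, p = 0.0571 each, the smallest p that 3 against 4 libraries allow). The estimated depth was 20300000 to 29400000 fragments in OVA and 14700000 to 21300000 fragments in Herb (the same exact permutation test, p = 0.114). With the values as deposited, the median gene was 0.48 higher in Herb on the log2 scale and 4932 of 4982 calls were higher in Herb. Rescaling the libraries to 1 common 75th percentile brought the median to 0.01, and all levels below are such rescaled FPKM (fragments scaled to the length of the transcript and to the fragments of the library).

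**Figure D1:**
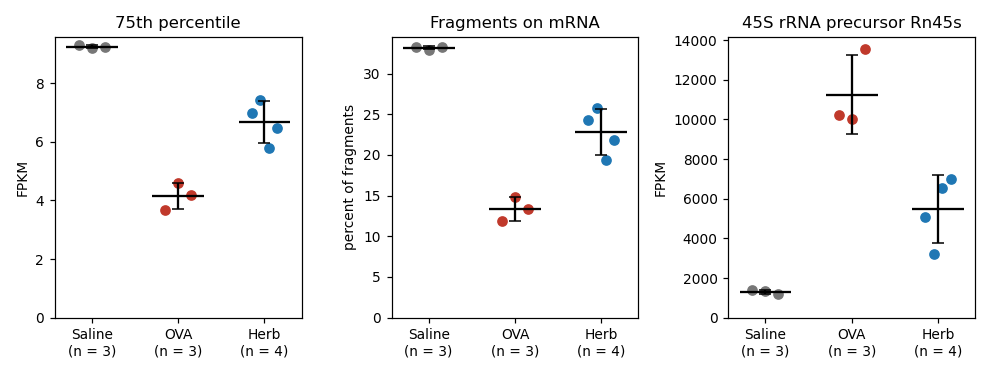
Measures of each library by group, as deposited: the 75th percentile of FPKM over genes, the percent of fragments on annotated messenger RNA and the FPKM of the ribosomal RNA precursor Rn45s, with points for mice, a bar for the group mean and whiskers for the SD. The 4 Herb libraries lie between the Saline and OVA libraries on all 3 axes, with 19.3% to 25.8% of their fragments on annotated messenger RNA against 11.9% to 14.9% in OVA.

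After rescaling, 90 of 11205 genes tested passed an adjusted p of 0.05 in Herb vs. OVA (limma with Benjamini-Hochberg adjustment), which is 0.803% of genes. Of these, 39 (0.348%) rose and 51 (0.455%) fell in Herb, and in none of the 90 did the Herb and OVA libraries overlap. With libraries rescaled to a common share of messenger RNA instead, 36 were higher and 91 lower. Over all genes the libraries did not overlap in 22.5%, of which 1229 genes were higher and 1291 lower in Herb. An unadjusted p under 0.05 was reached by 3007 genes (26.8%), and 1252 genes had an adjusted p between 0.05 and 0.1. The number of calls changed with the libraries included, and it was 26 without Herb replicate 1, 37 without Herb replicate 2, 104 without Herb replicate 3 and 37 without Herb replicate 4. Leaving out OVA replicate 1, 2 or 3 gave 52, 898 and 62 calls, respectively, and there were 30, 34 and 28 when Saline replicate 1, 2 or 3 was left out of the shared estimate of spread. Of the 33 genes named below for their calls, 14 kept an adjusted p under 0.05 whichever library was left out: Agrn, Akr1b3, Crebrf, Ddah2, Gm6644, H2-T24, Hnrnpm, Itgav, Mrps16, Ndel1, Pak4, Snord15a, Wdr26 and Zfp335. The other 19 lost it without at least 1 library, with adjusted p up to 0.136, and none of the 33 changed direction.

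The fragments of a gene had been shared between annotated transcripts and transcript models assembled from the same reads. The table lists 31605 such models without a gene symbol, and 9095 of the 11205 genes have at least 1 of them directly beside their own rows. Each gene was therefore also tested as the sum of its own rows and the models that flank them, a quantity called the locus sum here, although a flanking model can belong to a neighbouring gene. On locus sums 855 genes (7.63%) were called, of which 314 (2.80%) had higher levels in Herb and 541 (4.83%) lower levels, but without OVA replicate 1 this number was 42. Of the 90 genes called on their own rows, 44 were also called on locus sums in the same direction, 37 kept the direction without passing, and 9 had the opposite direction. The locus sum was added after the values had been seen, and its values are given for most of the called genes below.

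**Figure D2:**
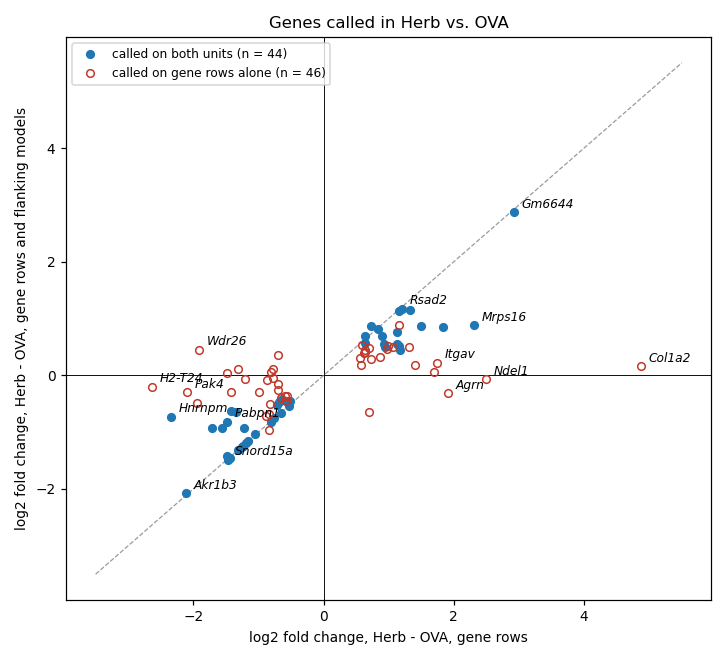
Log2 fold change (Herb minus OVA) of the 90 called genes on their own rows (horizontal axis) and on the locus sum of own rows and flanking assembled models (vertical axis); the dashed line marks equal values. The 44 filled points were called on both, and Col1a2, Ndel1, Agrn, Itgav, Wdr26, H2-T24 and Pak4 lie far from the line.

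Among the 39 genes higher in Herb, Crebrf, Dusp3, Rsad2, Ubald2 and Usp12 stood higher on both quantities. Crebrf encodes a regulator of the CREB3 family of transcription factors (chromosome 17, 26715594 to 26776637). Its levels were 2.50, 1.86 and 2.20 FPKM in OVA and 13.8, 13.9, 7.97 and 7.12 FPKM in Herb, with a Saline mean of 21.8 FPKM. The log2 fold change was 1.83 ± 0.233 (SE, adjusted p = 0.0135, limma) on own rows and 0.84 on locus sums (adjusted p = 0.0243). Herb thus lay between OVA and Saline, with Herb replicates 1 and 2 higher than replicates 3 and 4. Dusp3, a phosphatase that acts on MAP kinases, was at 3.23, 5.20 and 2.06 FPKM in OVA and at 11.6, 15.2, 8.92 and 9.90 FPKM in Herb (log2 fold change 1.502, adjusted p = 0.0404, limma; locus sum 0.86, adjusted p = 0.0460). On own rows the lowest Herb library exceeded the highest OVA library by more than 1.5 times. On the locus sum the groups overlapped, with OVA replicate 2 at 11.49 FPKM and Herb replicate 3 at 11.46 FPKM.

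Usp12 and Ubald2 rose by similar amounts. Usp12, a deubiquitinating enzyme, was at 0.857, 0.955 and 1.80 FPKM in OVA and at 4.91, 3.32, 4.47 and 3.11 FPKM in Herb (log2 fold change 1.18, adjusted p = 0.0456, limma; locus sum 0.45, adjusted p = 0.0466). Ubald2, a gene of little known function, was at 3.45, 1.38 and 1.93 FPKM in OVA and at 6.52, 6.27, 6.57 and 4.94 FPKM in Herb (log2 fold change 1.16, adjusted p = 0.0418, limma; locus sum 1.13, adjusted p = 0.0220). Neither gene's groups overlapped, and both lost the call when most single libraries were left out.

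For Ndel1, Agrn, Itgav, Ddah2, Col1a2 and Irgm1, the difference on own rows was not matched by the locus sum. Ndel1, which encodes a partner of the motor protein dynein, was listed at 0, 0 and 0.923 FPKM in OVA and at 7.18, 5.90, 5.53 and 5.59 FPKM in Herb (log2 fold change 2.50 ± 0.253, SE, adjusted p = 0.00515, limma). With its 4 flanking models the levels were 21.7, 9.497 and 18.6 FPKM in OVA and 15.04, 16.2, 14.4 and 14.0 FPKM in Herb, and the difference was -0.07 (adjusted p = 0.851). The Herb libraries all lay inside the range of OVA on the locus sum, which thus did not separate the groups.

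Agrn, which encodes the heparan sulfate proteoglycan agrin of basement membranes, behaved in the same manner. Its own rows were at 1.37, 1.39 and 1.32 FPKM in OVA and at 8.08, 8.26, 7.16 and 8.08 FPKM in Herb (log2 fold change 1.91 ± 0.154, SE, adjusted p = 0.00105, limma), whereas the locus sum differed by -0.32 (adjusted p = 0.295). Itgav, the integrin alpha V subunit that activates latent TGF-beta, was at 1.08, 1.21 and 0.861 FPKM in OVA and at 3.45, 7.08, 6.77 and 6.75 FPKM in Herb (log2 fold change 1.74, adjusted p = 0.00870, limma; locus sum 0.22, adjusted p = 0.290). Ddah2, an enzyme that degrades the nitric oxide synthase inhibitor dimethylarginine, was at 1.91, 2.05 and 1.71 FPKM in OVA and at 5.52, 8.99, 5.93 and 6.58 FPKM in Herb (log2 fold change 1.41, adjusted p = 0.00515, limma; locus sum 0.17, adjusted p = 0.415). The own rows of Agrn, Itgav and Ddah2 separated all Herb from all OVA libraries, but the locus sums did not pass the test.

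Col1a2, Gm6644, Mrps16 and Lst1 were called higher in Herb while listed at 0 in all 3 OVA libraries. Such a 0 can be a failed estimate, so no fold change is given. Col1a2, a chain of type I collagen, was at 32.5, 17.0, 26.6 and 43.7 FPKM in Herb (adjusted p = 0.0251, limma), but with its 5 flanking models it was at 42.9, 34.5 and 26.9 FPKM in OVA and at 37.0, 31.4, 32.0 and 57.0 FPKM in Herb (adjusted p = 0.739). The locus sum thus covered a similar range of levels in both groups, although its flanking models can belong to a neighbouring gene. Mrps16, a protein of the mitochondrial ribosome, was at 3.65, 4.73, 2.62 and 5.22 FPKM in Herb (adjusted p = 0.00105, limma), and its locus sum was 0.88 higher in Herb on the log2 scale (adjusted p = 0.0340). Lst1, a gene of leukocytes, was at 0.766, 1.54, 0.946 and 1.80 FPKM in Herb (adjusted p = 0.0349, limma), and its locus sum did not pass (0.88, adjusted p = 0.103). Over all genes tested, 40 were listed at 0 in every OVA library but not in every Herb library, and 7 the other way round.

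Gm6644 has to be read together with Akr1b3, since it is a transcribed pseudogene of Akr1b3 (synonym Akr1b3p) and the copies can share reads. Akr1b3 encodes aldose reductase, which reduces glucose to sorbitol. Akr1b3 was at 4.37, 4.93 and 5.97 FPKM in OVA and at 0.521, 0.105, 0.581 and 0.470 FPKM in Herb (log2 fold change -2.11 ± 0.160, SE, adjusted p = 0.00105, limma), while Gm6644, at 0 throughout OVA, was at 7.27, 6.85, 5.16 and 7.37 FPKM in Herb. The gene and its pseudogene thus moved in opposite directions without overlap of the groups. Their sum was at 4.37, 4.93 and 5.97 FPKM in OVA and at 7.80, 6.96, 5.74 and 7.84 FPKM in Herb, where the groups overlapped (difference 0.41 on the log2 scale, two-sided exact permutation test, p = 0.114). The assignment of reads between the copies is therefore uncertain, and neither direction can be credited to 1 of them. In Saline, Akr1b3 was at 0.371 and Gm6644 at 8.10 FPKM on average.

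Among the 51 genes lower in Herb, Hnrnpm, Pabpn1, Zfp335 and Arfgap1 fell on both quantities. Hnrnpm encodes a protein that binds pre-messenger RNA and takes part in splicing (chromosome 17, 33646233 to 33685458). Its levels were 23.7, 19.3 and 16.9 FPKM in OVA and 3.83, 2.55, 3.04 and 3.14 FPKM in Herb (log2 fold change -2.34 ± 0.183, SE, adjusted p = 0.00105, limma). The locus sum was at 30.5, 27.2 and 24.1 FPKM in OVA and at 16.0, 14.99, 17.1 and 15.7 FPKM in Herb (log2 fold change -0.73, adjusted p = 0.0157). Herb was lower than OVA in every library on both quantities, by a smaller amount for the locus sum.

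Pabpn1, the nuclear poly(A)-binding protein, was at 27.3, 16.7 and 31.2 FPKM in OVA and at 7.56, 6.38, 9.40 and 8.99 FPKM in Herb (log2 fold change -1.49 ± 0.218, SE, adjusted p = 0.0251, limma; locus sum -0.82, adjusted p = 0.0257). Zfp335, a zinc finger transcription factor, was at 11.2, 8.81 and 8.32 FPKM in OVA and at 2.68, 1.31, 2.68 and 2.27 FPKM in Herb (log2 fold change -1.71, adjusted p = 0.00998, limma; locus sum -0.92, adjusted p = 0.0201). Arfgap1, which promotes GTP hydrolysis by ARF1 at the Golgi, was at 13.6, 6.72 and 8.78 FPKM in OVA and at 2.46, 2.16, 4.05 and 1.75 FPKM in Herb (log2 fold change -1.56, adjusted p = 0.0376, limma; locus sum -0.92, adjusted p = 0.0375). The Herb levels of Pabpn1, Zfp335 and Arfgap1 were nearer to the Saline means of 5.65, 2.16 and 0.918 FPKM than to those of OVA.

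H2-T24, Pak4, Psd4, Wdr26 and Tnpo1 were called lower in Herb on own rows but not called on locus sums. H2-T24, a non-classical MHC class I gene, was at 12.99, 15.3 and 7.32 FPKM in OVA and at 0.967, 1.14, 1.22 and 0.666 FPKM in Herb (log2 fold change -2.64 ± 0.218, SE, adjusted p = 0.00109, limma). Its locus sum was at 31.0, 33.5 and 21.5 FPKM in OVA and at 29.6, 20.8, 21.0 and 26.7 FPKM in Herb, and the groups overlapped (-0.21, adjusted p = 0.593). MHC class I genes are near copies of each other, which adds to the uncertainty of its value.

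Wdr26, a subunit of a ubiquitin ligase, was at 6.90, 6.34 and 6.75 FPKM in OVA and at 1.14, 0.911, 0.894 and 1.22 FPKM in Herb (log2 fold change -1.91 ± 0.131, SE, adjusted p = 0.000932, limma), yet the locus sum with 17 flanking models had the opposite direction (0.45, adjusted p = 0.0714), with all Herb libraries above those of OVA. Pak4, a kinase of the cytoskeleton, was at 4.99, 6.57 and 6.15 FPKM in OVA and at 0.430, 0.370, 0.905 and 0.769 FPKM in Herb (log2 fold change -2.10, adjusted p = 0.00105, limma; locus sum -0.30, adjusted p = 0.144), and its Herb libraries lay below those of OVA on the locus sum as well. Psd4, an exchange factor of ARF6, had a log2 fold change of -1.94 (adjusted p = 0.0443, limma; locus sum -0.48, adjusted p = 0.127), and Tnpo1, a nuclear import receptor, one of -1.48 (adjusted p = 0.0456, limma; locus sum 0.04, adjusted p = 0.935). For these genes the annotated transcript differed between the groups, and the locus sum did not pass the test.

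**Figure D3:**
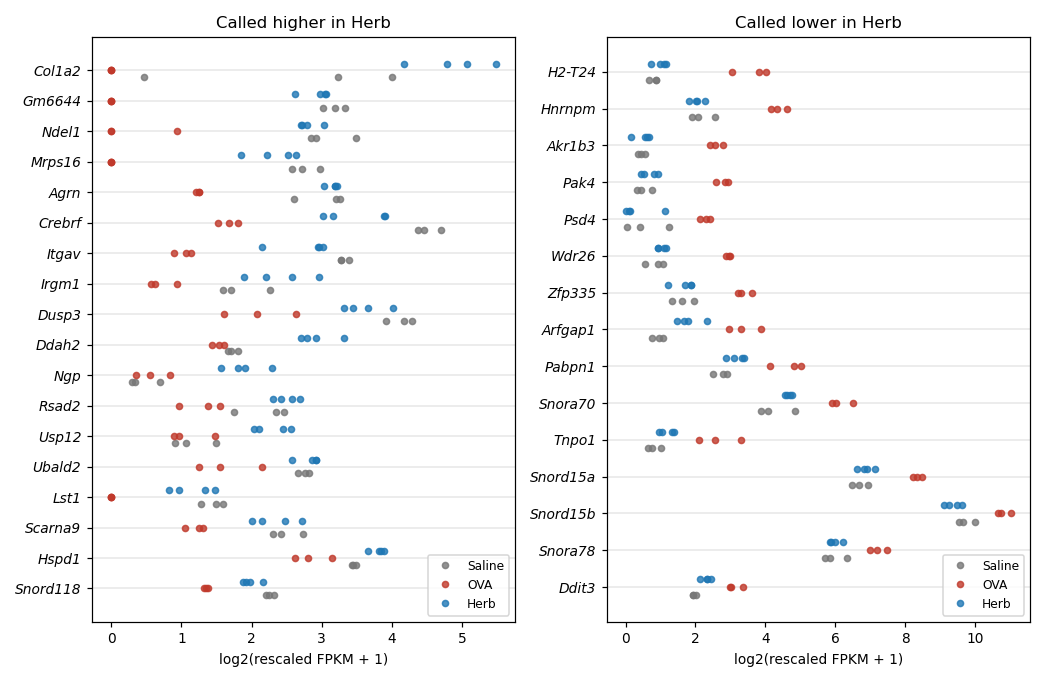
Levels of the 33 named genes in every library, as log2(rescaled FPKM + 1), for genes called higher (left) and lower (right) in Herb; each point is a mouse and the colours mark the groups. No Herb point overlaps with an OVA point in any gene, and Col1a2, Gm6644, Mrps16 and Lst1 have all OVA points at 0.

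Small nucleolar RNAs formed the list with the most called members, 8 in all. They are short RNAs that guide chemical modification of ribosomal RNA, in a class with box C/D (Snord) and a class with box H/ACA (Snora), and most are cut out of introns of host genes, many of which encode ribosomal proteins. Of 76 members tested, 6 were called lower in Herb (Snord15a, Snord15b, Snora61, Snora68, Snora70 and Snora78) and 2 higher (Scarna9 and Snord118), beside 0.455% lower and 0.348% higher among all genes. The median of the list was -0.22 beside 0.01 for all genes, and 22 members had an unadjusted p under 0.05 in the lower and 5 in the higher direction, beside 13.2% and 13.6% of all genes. On locus sums 14 were called lower and 2 higher, beside 4.83% and 2.80% of all genes, with a median of -0.31. The last 30 bases of 5 called members are shown to mark their class, read 5′ to 3′ from GENCODE vM21 (GRCm38.p6), with the CTGA of box D or the ACA of box H/ACA in capitals:
Snord15a (chr7:99482785-99482932, minus strand): agatgaccaagaggcatttgtCTGAgaagg
Snord15b (chr7:99479563-99479707, minus strand): gattgatttagaggcatttgtCTGAgaagg
Snord118 (chr11:69073427-69073561, plus strand): ctgacaacatcctggttgctcctatCTGAt
Snora70 (chrX:74272484-74272620, plus strand): gggctgcctcaagggaccttggagACAatt
Snora78 (chr17:24719676-24719803, minus strand): tgggagggtgaaacccaggcccctACAttc
Snord15a and Snord15b end in 21 identical bases, so short reads of 1 copy could be counted for the other.

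Snord15b was the most abundant of them, at 2086, 1622.5 and 1712 FPKM in OVA and at 554.7, 783.04, 714.8 and 611.6 FPKM in Herb (log2 fold change -1.44 ± 0.199, SE, adjusted p = 0.0210, limma). Snord15a was at 357.6, 296.1 and 323 FPKM in OVA and at 98.3, 112, 139 and 119.5 FPKM in Herb (log2 fold change -1.47 ± 0.164, SE, adjusted p = 0.00752, limma). Both lie in introns of Rps3, a ribosomal protein gene that was at 36.7, 38.9 and 31.2 FPKM in OVA and at 42.9, 35.9, 34.8 and 49.6 FPKM in Herb (log2 fold change 0.18, adjusted p = 0.528, limma). The listed levels of the snoRNAs were thus lower in every Herb library while their host did not separate the groups. The libraries were made with a kit for messenger RNA. How evenly it captured snoRNAs in the groups was not tested, so the levels of snoRNA and host are not directly comparable.

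Snora70 (in Rpl10) was at 89.8, 64.5 and 58.8 FPKM in OVA and at 25.0, 22.9, 26.4 and 23.6 FPKM in Herb (log2 fold change -1.48, adjusted p = 0.0372, limma). Snora78 (in Snhg9) was at 178.5, 146.4 and 126.3 FPKM in OVA and at 58.03, 62.3, 73.1 and 56.4 FPKM in Herb (log2 fold change -1.25, adjusted p = 0.0300, limma). The Saline means of Snora70 and Snora78, 19.2 and 62.4 FPKM, were near those of Herb. In the other direction, Scarna9, a guide RNA of Cajal bodies, was at 1.08, 1.38 and 1.48 FPKM in OVA and at 3.42, 4.57, 3.02 and 5.61 FPKM in Herb (log2 fold change 1.13, adjusted p = 0.0377, limma). Snord118, the U8 RNA needed to process the large ribosomal subunit RNA, was at 1.59, 1.49 and 1.55 FPKM in OVA and at 2.78, 3.46, 2.68 and 2.92 FPKM in Herb (log2 fold change 0.64, adjusted p = 0.0251, limma; locus sum 0.44, adjusted p = 0.194). The lengths of Scarna9 and Snord118 were taken as 42 and 135 bases. At such lengths these levels rest on few fragments, so the values of both RNAs are uncertain.

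Of the 76 snoRNAs, 55 lie on the strand of 1 tested host gene, and these hosts number 45. On own rows, the snoRNA was lower and the host higher in Herb for 25 of them, and both were lower for 13. Both were higher for 8, and the snoRNA was higher and the host lower for 9. The locus sum of some hosts had the other sign, such as Eef1b2 (1.38 on own rows, -0.13 on the locus sum) and Rpl10 (-0.40 and 0.60). The median log2 fold change on own rows was -0.34 over the 55 snoRNAs and 0.06 over their hosts. The summed level of the list was 8402 to 11990 FPKM in OVA and 4592 to 6307 FPKM in Herb. The precursor Rn45s and the share of fragments on annotated messenger RNA moved with the groups in the same libraries, as given above. Their part in the snoRNA values was not tested. Among all genes, the 291 genes of up to 200 bases had a median log2 fold change of -0.13, against 0.25 for the 106 genes of 200 to 500 bases, and most of the snoRNAs tested are themselves in the shortest class.

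**Figure D4:**
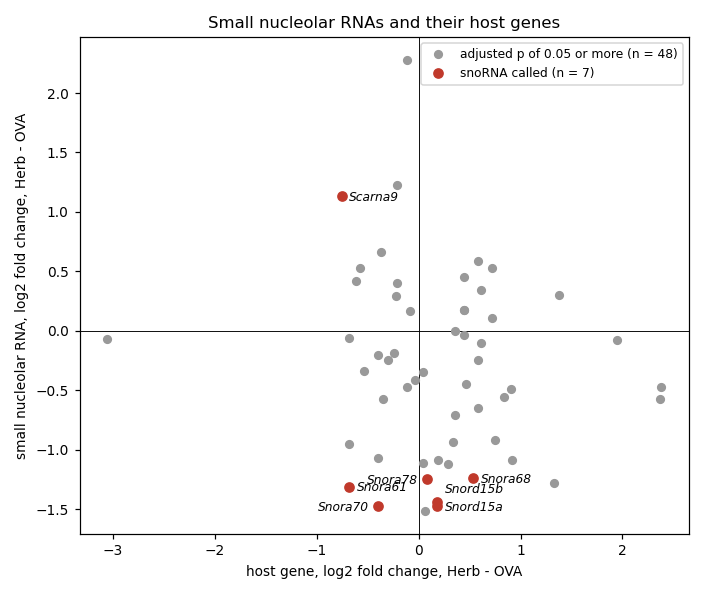
Log2 fold change (Herb minus OVA, own rows) of 55 small nucleolar RNAs against that of the host gene whose intron or exon holds them. The 7 called snoRNAs are in colour, 6 of them between -1.24 and -1.48 on the vertical axis while their hosts lie between -0.68 and 0.53.

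Cytosolic ribosomal protein genes had a positive median, with many small differences and no call on own rows. Of 74 cytosolic ribosomal protein genes tested, 65 were higher in Herb, 41 with an unadjusted p under 0.05 against 1 in the lower direction (13.6% and 13.2% of all genes), and the median was 0.65 beside 0.01 for all genes. None passed the adjusted threshold on own rows, and 10 were called higher and none lower on locus sums, where the median was 0.55 (2.80% of all genes were called higher there). Rpl7, which is in the large subunit, was at 77.2, 101.3 and 77.7 FPKM in OVA and at 149.8, 141.2, 103.04 and 150.1 FPKM in Herb (log2 fold change 0.66, adjusted p = 0.0791, limma). Rplp1 of the ribosomal stalk was at 126.4, 189.5 and 165.5 FPKM in OVA and at 221.5, 203.5, 199.4 and 270.9 FPKM in Herb (log2 fold change 0.49, adjusted p = 0.139, limma). All Herb values of Rpl7 and Rplp1 lay above those of OVA. Rplp2, a second stalk protein, overlapped between the groups (0.19, adjusted p = 0.545, limma).

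Ribosomal protein genes are short and abundant, and abundant genes as a class were higher in Herb: the median log2 fold change was 0.49 for the 386 genes with a mean of 20 to 100 FPKM and 0.52 for the 62 genes above 100 FPKM, but -0.06 for genes of 1 to 2 FPKM. The part of this trend in the ribosomal protein values was not tested. The same held for the genes of oxidative phosphorylation, the chain of mitochondrial complexes that makes ATP, of which 72 of 91 were higher in Herb with a median of 0.37, 22 of them with an unadjusted p under 0.05 against 3 in the lower direction (13.6% and 13.2% of all genes), and none passed the adjusted threshold. On locus sums 2 of the 91 were called higher, a share below the 2.80% of all genes. Cox6c, a subunit of complex IV, was at 18.1, 5.98 and 25.4 FPKM in OVA and at 37.6, 46.2, 35.2 and 48.3 FPKM in Herb (log2 fold change 1.48, adjusted p = 0.0815, limma). Uqcrh, a subunit of complex III, was at 30.1, 42.0 and 38.4 FPKM in OVA and at 59.8, 61.7, 52.4 and 66.6 FPKM in Herb (0.70, adjusted p = 0.0683, limma). Neither gene overlapped between the groups. The 36 proteasome genes tested had a median of 0.20 and no call.

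Red cell genes had the highest median of all 43 lists, 1.25 over 10 genes tested, of which 8 had an unadjusted p under 0.05 in the higher direction and 1 in the lower (13.6% and 13.2% of all genes). Alas2, the first enzyme of heme synthesis in red cell precursors, was at 4.66, 6.78 and 1.41 FPKM in OVA and at 14.6, 12.6, 14.8 and 16.3 FPKM in Herb (log2 fold change 1.71, adjusted p = 0.0593, limma; locus sum 1.69, adjusted p = 0.0281). Slc4a1, the anion exchanger of the red cell membrane, was at 0.571, 0.550 and 0.122 FPKM in OVA and at 2.64, 1.15, 3.12 and 2.08 FPKM in Herb (log2 fold change 1.18, adjusted p = 0.0611, limma; locus sum 0.94, adjusted p = 0.0407). Hbb-b2 was also called higher on the locus sum (2.32, adjusted p = 0.0193), where 2.80% of all genes were called higher. These genes were named after their values had been seen.

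Globin genes are near copies that share reads, and single rows jumped between libraries, for example Hba-a1 at 211.4, 5.09 and 0.498 FPKM in OVA. The alpha-globin genes summed to 212.3, 383.7 and 44.5 FPKM in OVA and to 626.6, 707.7, 649 and 736.8 FPKM in Herb (two-sided exact permutation test, p = 0.0571, the smallest possible), with a Saline mean of 2450 FPKM. The beta-globin genes summed to 154.1, 559.7 and 118.6 FPKM in OVA and to 900.2, 1053, 950.9 and 425 FPKM in Herb (two-sided exact permutation test, p = 0.114), where Herb replicate 4 lay inside the range of OVA. The summed level of the whole red cell list was 171.2 to 959.8 FPKM in OVA, 1195 to 1787 FPKM in Herb and 4817 to 5967 FPKM in Saline. The groups did not overlap in this sum, but it was not tested and consists mainly of globin rows. The part of red cell RNA in the other results was not tested.

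Neutrophil genes had the second highest median, 0.96 over 12 genes tested, all of which were higher in Herb and 7 with an unadjusted p under 0.05, beside 13.6% of all genes. The called member was Ngp, a granule protein made by maturing neutrophils, at 0.792, 0.463 and 0.283 FPKM in OVA and at 2.77, 2.51, 1.95 and 3.89 FPKM in Herb (log2 fold change 1.31 ± 0.202, SE, adjusted p = 0.0329, limma). On locus sums its difference was 0.50 (adjusted p = 0.140), and S100a8 and Clec4d were called higher instead, beside 2.80% of all genes. S100a8, a subunit of calprotectin, was at 15.6, 15.6 and 6.74 FPKM in OVA and at 49.8, 57.0, 27.9 and 46.7 FPKM in Herb on the locus sum (log2 fold change 1.80, adjusted p = 0.0201). Lcn2, an iron-scavenging protein of neutrophils and epithelium, was at 9.56, 13.7 and 17.3 FPKM in OVA and at 26.5, 27.9, 21.5 and 30.9 FPKM in Herb (0.96, adjusted p = 0.0770, limma). Herb was higher than OVA without overlap in 7 of the 12 genes, beside 11.0% of all genes, and the groups overlapped in the rest. The summed level of the list was 33.3 to 108.01 FPKM in OVA and 86.8 to 161.9 FPKM in Herb, where the groups overlapped. In Saline this sum was 50.2 to 374.9 FPKM, with a mean of 198.2 FPKM. These sums include S100a9, listed at 0, 287.7 and 90.6 FPKM in Saline, 0, 0 and 1.45 FPKM in OVA and 0, 51.9, 0 and 0 FPKM in Herb. Its higher level in Herb rests on Herb replicate 2. Il1r2 was listed at 0 throughout OVA and at 1.86, 4.04, 0 and 0 FPKM in Herb. Such values of 0 can be failed estimates. In fluid washed from the airways, the study counted fewer inflammatory cells in DSE-treated than in untreated asthmatic mice, with neutrophils among the types counted. Those are counts of cells in the airways, whereas the values here are RNA of whole lung.

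The lists of the allergic response held no called gene. None of 14 type 2 response genes, 11 goblet and mucus genes or 3 eosinophil genes tested was called on own rows or locus sums, with medians of 0.15, -0.17 and 0.29. Retnla, a secreted protein induced by type 2 cytokines, was at 1089, 1801 and 6318 FPKM in OVA and at 1919, 977.6, 3835 and 3706 FPKM in Herb (log2 fold change -0.03 ± 0.795, SE, adjusted p = 0.988, limma), against a summed level of the whole list of 57.1 to 60.1 FPKM in Saline. Clca1, a secreted protein of goblet cells, was at 27.4, 64.2 and 1199 FPKM in OVA and at 94.9, 29.5, 281.2 and 585.9 FPKM in Herb (0.19 ± 1.32, SE, adjusted p = 0.944, limma). Both genes spanned a wide range within each group, and with an SE of 0.795 and 1.32 a difference of the size of those described above was not detectable. Il33, an alarmin of epithelium, was at 2.62, 8.10 and 7.92 FPKM in OVA and at 7.86, 6.75, 11.5 and 11.6 FPKM in Herb (0.62, adjusted p = 0.346, limma). Postn, a matrix protein induced by interleukin 13, was at 7.84, 9.41 and 7.99 FPKM in OVA and at 13.7, 19.9, 9.44 and 12.8 FPKM in Herb (0.63, adjusted p = 0.111, limma), without overlap of the groups. In Saline, Il33 was at 7.31, 18.2 and 9.44 FPKM and Postn at 30.9, 24.5 and 27.7 FPKM. All Herb values of Postn thus lay between those of OVA and Saline, and Postn was lower in OVA than in Saline. Eosinophil markers were low: of 11 in the list 9 were in the table, and only 3 reached the minimum level. These were Alox15, Ear1 and Ear2, and Ear1 and Ear2 are also in the macrophage list. The summed level of the eosinophil list averaged 22.9 FPKM in Saline, 10.5 FPKM in OVA and 11.9 FPKM in Herb. The median of this list therefore cannot be read as a measure of eosinophils.

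Other immune cell lists held no called gene on own rows. Macrophage genes (17 tested) had a median of 0.13 and a summed level of 444.5 to 905.1 FPKM in OVA and of 1062 to 1330 FPKM in Herb, in which Lyz2 was at 258.1, 428.6 and 98.7 FPKM in OVA and at 745.1, 761.3, 380.5 and 466.4 FPKM in Herb (log2 fold change 1.34, adjusted p = 0.116, limma). Lysozyme M is also made by neutrophils and type 2 cells, and Mrc1, a receptor of resident and alternatively activated macrophages, was at 0.06 (adjusted p = 0.893). Csf1r, which defines macrophages, had a listed value of 0 in each of the 7 libraries, so it could not be used. The medians were -0.26 for T cells (8 tested), 0.01 for B and plasma cells (15), 0.43 for NK cells (6), -0.21 for mast cells and basophils (3) and -0.01 for dendritic cells and MHC class II (10). Chemokines (18 tested, median 0.30) and interleukins with their receptors (31 tested, median 0.001) had no call on own rows.

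Epithelial lists held no call on own rows, and differences between these lists were not tested. Alveolar type 1 genes (16 tested) had a median of 0.64 and type 2 genes (18 tested) one of 0.44, whereas ciliated cell genes (19 tested) had the lowest median of all lists, -0.43, and club cell genes (14 tested) one of 0.06. Among all genes, the median was 0.49 at a mean of 20 to 100 FPKM and -0.04 at 2 to 5 FPKM. The part of this trend with abundance in these and the other list medians was not tested. Hopx, a transcriptional cofactor of type 1 cells, was at 31.7, 39.7 and 20.2 FPKM in OVA and at 63.4, 60.6, 39.1 and 35.6 FPKM in Herb (log2 fold change 0.69, adjusted p = 0.159, limma), with overlap of the groups. Sftpc was at 451.3, 638.3 and 319.3 FPKM in OVA and at 1037, 1085, 620.02 and 714.4 FPKM in Herb (0.89, adjusted p = 0.109, limma), and Sftpa1, a surfactant protein of innate defence, at 194.6, 247.7 and 204.1 FPKM in OVA and at 337.7, 337.1, 301.3 and 285.7 FPKM in Herb (0.55, adjusted p = 0.0768, limma). On locus sums the type 2 genes Lamp3 (1.16, adjusted p = 0.0396) and Lyz1 (1.05, adjusted p = 0.0490) were called higher, beside 2.80% of all genes.

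Of the 19 ciliated cell genes 17 were lower in Herb, but only 3 with an unadjusted p under 0.05, a share near the 13.2% of all genes, and none in the other direction. Foxj1, the transcription factor of motile cilia, was at 13.7, 13.1 and 32.5 FPKM in OVA and at 8.46, 7.08, 15.3 and 12.6 FPKM in Herb (-0.75, adjusted p = 0.241, limma). Dnah11 (-0.55, adjusted p = 0.0468) and Dnaic1 (-0.80, adjusted p = 0.0468), motor proteins of cilia, were called lower on locus sums, where 4.83% of all genes were. The summed level of the ciliated list was 174.2 to 261.6 FPKM in OVA and 150.4 to 190.4 FPKM in Herb, which overlapped. Sec14l3, the most abundant member, was nearly equal in the groups (0.02, adjusted p = 0.908).

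Vessel and connective tissue lists had medians of both signs. Endothelial genes (27 tested) had a median of 0.21, and on locus sums Ramp2 (0.87, adjusted p = 0.0490) and Calcrl (1.16, adjusted p = 0.0427), which together form the adrenomedullin receptor, and Tmem100 (1.08, adjusted p = 0.0407) were called higher and Nos3, the endothelial nitric oxide synthase, lower (-0.98, adjusted p = 0.0376). Over all genes, 2.80% were called higher and 4.83% lower on locus sums. Calcrl on own rows was at 34.9, 36.0 and 4.82 FPKM in OVA and at 65.7, 95.3, 46.8 and 47.6 FPKM in Herb, where OVA replicate 3 was far below the others. Fibroblast and matrix genes (25 tested) had a median of 0.40 with Col1a2 as the only call, and collagen chains (20 tested) one of -0.08 with Col1a2 again and with 3 chains lower on locus sums. As given above, the locus sum of Col1a2 did not separate the groups. Smooth muscle (13 tested) had a median of -0.10 and cardiac muscle of pulmonary veins (7 tested) one of 0.21. VEGF and TGF-beta signalling (28 tested) had a median of 0.15 and complement and coagulation (21 tested) one of 0.43.

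Interferon-stimulated genes include many antiviral effectors that are switched on together by the factor ISGF3. Of 18 tested, Rsad2 and Irgm1 were called higher in Herb and none lower, beside 0.348% and 0.455% of all genes, and the median was 0.22. Rsad2 encodes viperin, an antiviral enzyme (chromosome 12, 26442743 to 26456452), and was at 1.60, 1.92 and 0.959 FPKM in OVA and at 5.43, 3.96, 4.94 and 4.36 FPKM in Herb (log2 fold change 1.20 ± 0.202, SE, adjusted p = 0.0410, limma; locus sum 1.18, adjusted p = 0.0193). Irgm1, a GTPase of defence against intracellular microbes, was at 0.540, 0.480 and 0.924 FPKM in OVA and at 4.97, 3.61, 6.79 and 2.71 FPKM in Herb (log2 fold change 1.70 ± 0.264, SE, adjusted p = 0.0333, limma), but its locus sum differed by 0.06 (adjusted p = 0.827). Rsad2 thus separated the groups on both quantities and Irgm1 on own rows alone. Isg15 (0.67, adjusted p = 0.0726), Ifi44 (0.78, adjusted p = 0.0724) and Ifit1 (0.61, adjusted p = 0.109) had positive log2 fold changes that did not pass, whereas Mx1 had one of -0.57 (adjusted p = 0.218).

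The promoters of these genes were searched for the letters GAAANNGAAA on both strands, a core of the element that ISGF3 binds. Of 13 tested genes of the list with a promoter in RefSeq, from 250 bases before to 50 after the start, 9 held it, beside 3.85% of 8283 tested genes and 3.44% of 32851 promoters. A stretch of 30 bases is shown for the 2 called genes and for Isg15, 5′ to 3′ on the strand of the gene, with the match in capitals (RefSeq, GRCm38.p6):
Irgm1 (chr11:48871431-48871460, minus strand): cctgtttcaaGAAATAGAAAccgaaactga
Rsad2 (chr12:26456553-26456582, minus strand): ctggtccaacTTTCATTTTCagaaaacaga
Isg15 (chr4:156200877-156200906, minus strand): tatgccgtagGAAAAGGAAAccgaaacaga
Members with the letters included Oas1a (-0.17) and Ifit3 (-0.45), so members with the letters had log2 fold changes of both signs. The search is a description of letters and says nothing of binding.

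Stress genes were mixed. Of 25 genes of heat shock and the endoplasmic reticulum tested, Hspd1 rose and Ddit3 fell, beside 0.348% and 0.455% of all genes, and the median was 0.04. Hspd1, the chaperonin of mitochondria, was at 5.14, 7.90 and 5.98 FPKM in OVA and at 13.8, 13.4, 13.1 and 11.6 FPKM in Herb (log2 fold change 0.94 ± 0.130, SE, adjusted p = 0.0210, limma; locus sum 0.51, adjusted p = 0.0371). Its partner Hspe1 had a log2 fold change of 0.74 (adjusted p = 0.0752), and the cytosolic chaperone Hsp90ab1 one of 0.62 (adjusted p = 0.0686). Ddit3, the transcription factor CHOP of the unfolded protein response, was at 7.0025, 7.09 and 9.24 FPKM in OVA and at 3.35, 4.03, 4.43 and 4.06 FPKM in Herb (-0.82 ± 0.118, SE, adjusted p = 0.0251, limma; locus sum -0.51, adjusted p = 0.191). Ern1, which encodes the sensor IRE1 of the same response and is outside the list, was also called lower (-0.71, adjusted p = 0.0404; locus sum -0.26, adjusted p = 0.122). The chaperone Hspa5 had a log2 fold change of -0.83 (adjusted p = 0.144), and Xbp1 one of -0.14 (adjusted p = 0.867). Other members of the list were higher in Herb without passing, such as Canx (0.50, adjusted p = 0.128), Dnajb9 (0.39, adjusted p = 0.307) and Pdia3 (0.36, adjusted p = 0.236). Of the 25 genes, 14 were higher and 11 lower in Herb, so the list had no common direction.

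Genes that respond to glucocorticoids had a median of 0.79 over 19 tested, the third highest, with 18 of 19 higher in Herb, 7 with an unadjusted p under 0.05 in the higher direction and 1 in the lower (13.6% and 13.2% of all genes), but none was called on own rows. Tsc22d3, which encodes the protein GILZ, was at 54.0, 63.7 and 25.2 FPKM in OVA and at 136.3, 125, 76.0 and 62.0 FPKM in Herb (log2 fold change 1.08, adjusted p = 0.110, limma), with Herb replicate 4 inside the range of OVA. Zbtb16 was at 17.98, 13.2 and 5.53 FPKM in OVA and at 35.6, 15.03, 20.8 and 10.8 FPKM in Herb (0.71, adjusted p = 0.641, limma), and Klf9 at 19.2, 22.5 and 15.5 FPKM in OVA and at 25.1, 24.2, 19.4 and 16.7 FPKM in Herb (0.15, adjusted p = 0.632, limma). Herb replicates 1 and 2 were the highest libraries for Tsc22d3 and Klf9, and OVA replicate 3 was the lowest for all 3 genes. On locus sums Hif3a was called higher (1.01, adjusted p = 0.0411), beside 2.80% of all genes. Several genes of the list, such as Lcn2 and Errfi1, are in other lists too.

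The remaining responses held no call on own rows: NRF2 antioxidant genes (25 tested, median 0.19), xenobiotic metabolism (18, 0.26), circadian clock (15, -0.10), immediate early genes (16, -0.06), cell cycle (18, -0.005), glycolysis (14, 0.05), cholesterol and fatty acid synthesis (20, -0.03), leukotriene and prostaglandin genes (17, -0.10), replication-dependent histones (61, 0.003), nuclear and structural RNA (14, -0.30) and DNA methylation (11, -0.17). Fth1, the heavy chain of ferritin, was at 213.9, 351.3 and 244.5 FPKM in OVA and at 481.03, 455.3, 328.5 and 443.4 FPKM in Herb (0.68, adjusted p = 0.0971, limma). Mki67, a marker of dividing cells, was at 3.41, 5.44 and 6.19 FPKM in OVA and at 5.11, 4.03, 4.89 and 6.85 FPKM in Herb (0.06, adjusted p = 0.876, limma), with full overlap. Dnmt1, the maintenance DNA methyltransferase, was at 8.13, 7.28 and 8.50 FPKM in OVA and at 5.16, 4.78, 5.71 and 6.48 FPKM in Herb (-0.46, adjusted p = 0.0917, limma), without overlap.

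The study put forward 18 genes whose expression it selected on these same samples, so their direction is not independent evidence. Its expression values are for single transcripts screened at a p-value under 0.05. Those below are sums over the rows of a gene with an adjusted p, so unit and threshold both differ. All 18 were tested, 1 was called (Ndel1), 9 had an unadjusted p under 0.05 in the higher direction and none in the lower (13.6% and 13.2% of all genes), and the median was 0.69 on own rows and 0.27 on locus sums. Vegfa was at 14.0, 16.9 and 23.4 FPKM in OVA and at 23.6, 17.04, 2.95 and 1.62 FPKM in Herb (log2 fold change -1.19, adjusted p = 0.325, limma), where Herb replicates 1 and 2 were inside or above the range of OVA and replicates 3 and 4 far below. Rps24, a ribosomal protein gene, was at 39.5, 7.59 and 2.35 FPKM in OVA and at 66.2, 92.0, 100.7 and 20.4 FPKM in Herb on own rows (2.53, adjusted p = 0.117, limma). Its locus sum was at 60.0, 57.6 and 63.1 FPKM in OVA and at 114.03, 122.5, 106.5 and 112 FPKM in Herb, which separated the groups by 0.91 on the log2 scale (adjusted p = 0.0123). Clec4d, a lectin receptor of myeloid cells, was at 2.03, 0.926 and 1.15 FPKM in OVA and at 3.77, 5.27, 2.27 and 3.23 FPKM in Herb (0.96, adjusted p = 0.0817, limma; locus sum 1.06, adjusted p = 0.0323). The spread of Rps24 among OVA libraries was thus narrower on the locus sum than on own rows.

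**Figure D5:**
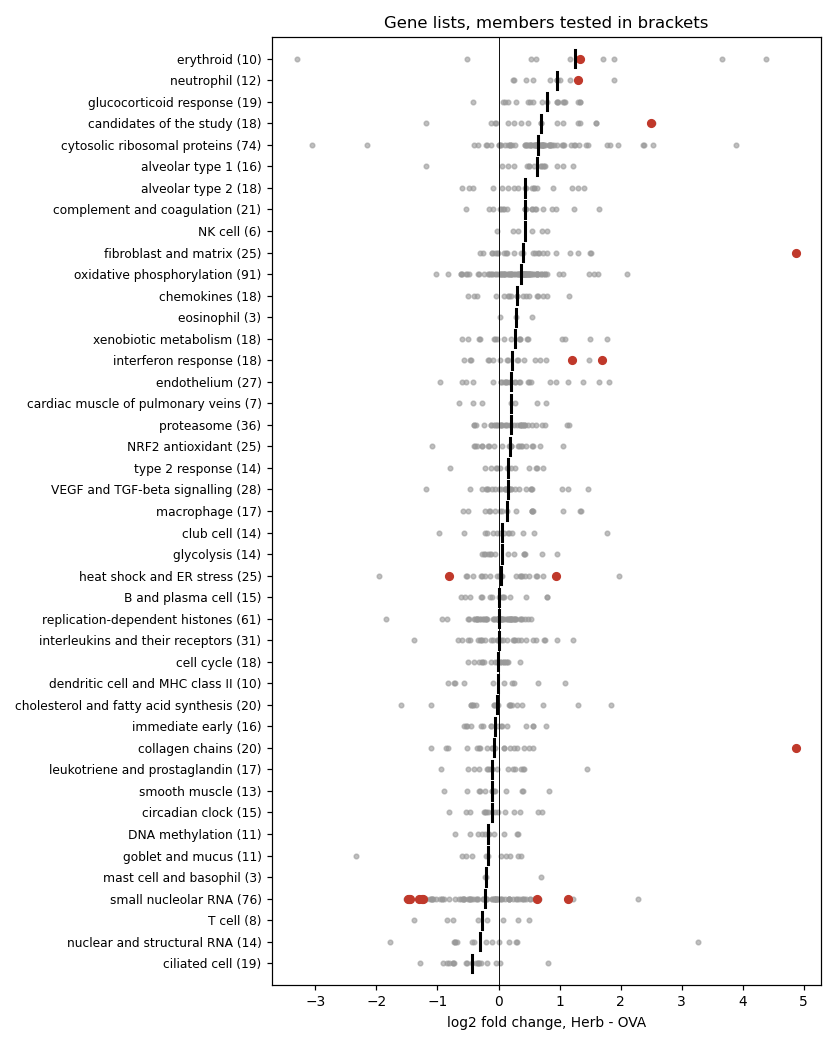
Log2 fold change (Herb minus OVA, own rows) of the tested members of 43 gene lists, ordered by their median, which is marked by a black bar; coloured points passed an adjusted p of 0.05 and grey points did not. The medians run from -0.43 (ciliated cell) to 1.25 (erythroid), and the snoRNA list holds 8 of the coloured points.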

How the data were processed

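RNA-seq was performed on whole lung with an Illumina kit for messenger RNA and paired-end reads. The authors trimmed the reads (cutadapt 1.10, per the labels), aligned them to mm10 with HISAT2, assembled transcripts with StringTie 1.3.3b and deposited FPKM per transcript row, of which 66548 are in the table. Replicates were not pooled. Different RNA extraction kits are named in the labels and in the study's methods, and it is not known which was used. No counts were used, so depth was estimated from the value of 1 fragment in low genes.

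FPKM of all rows with the same symbol were summed, libraries were divided by their 75th percentile over genes with a mean of at least 1 FPKM (11205 genes) and brought to a common scale, and log2(FPKM + 1) was fitted with limma 3.58.1 in R 4.3.3 (lmFit, eBayes with trend), with all 10 libraries, 3 group means and no covariates. Because of the added 1, fold changes of genes with low FPKM come out too small. P-values of Herb vs. OVA were adjusted by the Benjamini-Hochberg method over all genes, and a call is an adjusted p under 0.05. Flanking assembled models were added to gene sums in a second fit. Scaling factors and genes were kept when a library was left out. The procedure was tested on simulated data. Named genes are, for each direction, up to 12 called genes without overlap with the largest fold change, genes called with 0 in all libraries of a group, and the called or, failing these, the 3 most abundant members of each list; a few others are said to be chosen after their values were seen or serve as partners of these. In the lists, further members are named for their locus sums or as partners, and they were likewise chosen after their values were seen. Some genes that meet the rule are not reported here. The members and lists were chosen with earlier results of these data known. Positions are those of GRCm38.p6. Python 3.11.15 was used for the remaining steps.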

Additional observations from a re-analysis of the deposited data

Results flagged for a closer look

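Of 79 sets of the 4 Herb libraries examined (the named genes, 3 library measures and the summed levels of the gene lists), 4 had 1 library whose gap to the nearest other, divided by the whole range, was above Dixon's 95% critical value for 4 samples. Chance flags about 1 in 20 sets. The ratio was 0.839 for Agrn, whose lowest library was Herb replicate 3 at 7.16 FPKM against 8.08 to 8.26 in the others. It was 0.907 for Itgav, whose lowest library was Herb replicate 1 at 3.45 FPKM, and 0.922 for Psd4, whose highest was Herb replicate 2 at 1.17 FPKM against 0.0129 to 0.103 in the others. It was 0.949 for the summed small nucleolar RNAs, with Herb replicate 3 at 6307 FPKM against 4592 to 4680 FPKM.

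The assembled models without a symbol, which no comparison of genes uses as rows of their own, were tested in the same way. Of 17801 models with a mean of at least 1 FPKM, 105 were called in Herb vs. OVA (limma, adjusted p under 0.05), 29 higher and 76 lower in Herb, and 4244 had an unadjusted p under 0.05. They carry no gene symbol in the table.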

How the results depend on the processing

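The 90 calls (39 higher, 51 lower in Herb) and the 372 genes that differed by 1 or more on the log2 scale with an unadjusted p under 0.05 (called the screen) depended on the processing, and the cause was not tested. With the values as deposited there were 4982 calls (4932 higher) and 1232 genes in the screen. Quantile normalization gave 158 calls (102 lower), and rescaling to a common share of fragments on annotated mRNA, an alternative added after seeing the data, left 91 lower. A pseudocount of 0.1 gave 53 calls (26 lower) and 600 genes in the screen. A mean of at least 5 FPKM, with 3955 genes tested, gave 37 calls (24 higher, 13 lower) and 182 genes in the screen. Calls lower in Herb were 32 without a filter on low values and 33 over transcript rows. A fit of the OVA and Herb libraries alone gave 25 calls (10 higher, 15 lower), and library weights gave 46 (25 higher, 21 lower). Flanking models gave 855 calls (314 higher, 541 lower) and 202 genes in the screen, and without OVA replicate 1 they gave 42 calls (11 higher, 31 lower) and 196 genes in the screen. Leaving out 1 library gave 26 to 898 calls, 14 to 505 higher and 12 to 393 lower, with 305 to 568 genes in the screen. Scaling by the common median, by trimmed means or by the 75th percentile of transcript rows kept all these counts within 1.5 times.

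Replicate numbers are shared between the groups, but same-numbered OVA and Herb libraries deviated together with correlations of 0.03, 0.09 and 0.05 over genes only, and not every library correlated best with its own number, so they were not treated as pairs. A fit with the replicate number as a block gave 5 calls (2 higher, 3 lower), with 4 of the 33 named genes among them.

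Of 832 values of the 33 named genes under the alternatives, 563 kept direction and call, 261 kept direction with an adjusted p of 0.05 or more and 8 changed direction. The latter were, with flanking models, Ndel1 (-0.073), Agrn (-0.32), Wdr26 (0.45) and Tnpo1 (0.041), and, without OVA replicate 1 as well, Agrn (-0.068), Irgm1 (-0.11), Wdr26 (0.35) and Tnpo1 (0.10). List medians moved by less than 1 SD of the libraries in 1017 of 1112 cases. The number of lungs, 3 against 4, limits all single-gene results, and 0 in a library can be a failed estimate.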
